A study of Homo sapiens with 6 samples.

Results

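HSP70 proteins are ATP-driven chaperones that bind short hydrophobic stretches of unfolded polypeptides and release them in cycles set by partner proteins. J-domain proteins deliver clients and trigger ATP hydrolysis, and nucleotide exchange factors, among them the larger relatives of HSP70, reset the cycle. The family holds members that every cell makes, members that heat and proteotoxic stress induce through heat shock factors, and members placed in mitochondria or the endoplasmic reticulum.

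The family was followed through 10 gene names, HSPA2, HSPA1A, HSPA1B, HSPA4, HSPA4L, HSPA8, HSPA9, HSPA13, HSPA14 and HSPH1, which were looked up in the count table of 58735 genes. HSPA14 occurs there as 2 overlapping gene entries, so the names gave 11 rows, and HSPA1A and HSPA1B were also summed because they share sequence. The members were selected on measured values of this same contrast, since earlier results of these data, in which HSPA2 was a called gene, were known when the family was picked. Their differences are therefore given as a description. RNA was sequenced from A549 cells, an established human lung adenocarcinoma line, that carried either a lentiviral vector with the IL17D open reading frame (IL17D-overexpressing) or a vector without insert (control). Each group had 3 libraries. The study asked how this secreted cytokine of the IL-17 family affects lung cancer cells. Both groups were grown in RPMI1640 with serum and carried lentiviral DNA. The study's methods name a human PGK promoter and an IRES-GFP cassette in the overexpression vector, and whether each line was a clone or a pool is not given in the sources used here.

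Library totals ran from 14319398 to 16521021 counts, at which 3 counts correspond to 0.182 to 0.210 CPM (counts scaled to a common library size, with TMM factors that correct for library composition). IL17D checked the labels, with 24, 18 and 34 counts in control and 31274, 32155 and 26772 counts in IL17D-overexpressing libraries. Among markers, the summed level of 6 epithelial genes was 12737 to 13243 CPM in control and 12372 to 12619 CPM in IL17D-overexpressing libraries, most of it KRT8 and KRT18. KRT8 was not called (log2 fold change -0.06, SE 0.022, edgeR adjusted p = 0.27). CDH1, the epithelial cadherin, was 1 of 5 tested epithelial genes called (log2 fold change -0.28, SE 0.072, edgeR adjusted p = 0.031). Of all genes tested, 0.908% were called lower. All 5 epithelial genes had a log2 fold change under 0. For KRT8, KRT7 and CDH1 the groups did not overlap and were lower with IL17D, 3 of 5 beside 8.31% of all genes tested. The same 3 were at an unadjusted edgeR p under 0.05, beside 11.6% of all genes tested. EPCAM had 9 to 21 counts and KRT19 3 to 11 counts in a library. The 4 surfactant genes of alveolar type 2 cells summed to 0.140 to 0.435 CPM, with SFTPB at 1 to 4 counts and SFTPA2 at 0. Leukocyte markers summed to 0.669 to 1.22 CPM, mostly CD14, with PTPRC and CD3E at 0. Endothelial markers summed to 0.0701 to 0.608 CPM, mostly CDH5. Fibroblast markers summed to 22.6 to 25.0 CPM in control and 19.5 to 23.9 CPM in IL17D-overexpressing libraries, nearly all of it COL1A1. The part of these markers in the values below was not tested.

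Several cytosolic HSP70s end in the same short peptide, the EEVD motif, which docks tetratricopeptide co-chaperones such as STIP1 and STUB1. The ends of the coding sequences are shown because they divide the members by this contact, with the codons of the motif in capitals (last 30 coding bases before the stop codon, 5′ to 3′, GENCODE 29 on GRCh38).
HSPA2: tccgggggacccaccatcGAAGAAGTGGAC
HSPA1A: gggtcaggccccaccattGAGGAGGTAGAT
HSPA1B: gggtcaggccctaccattGAGGAGGTGGAT
HSPA8: tcctcagggcccaccattGAAGAGGTTGAT
HSPA9: caaaaggaagatcaaaaggaggaaaaacag
HSPA4: gacaagaagcttcctgaaatggacattgat
HSPH1: gagaaaaattctgttaatatggacttggac

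HSPA2, HSPA1A, HSPA1B and HSPA8 carry the motif, whereas HSPA9, the mitochondrial HSP70, and HSPA4 and HSPH1, relatives that act as nucleotide exchange factors, end otherwise. HSPA4L, HSPA13 and both HSPA14 entries, whose ends are not printed, also lack it. HSPA2 lies at chr14:64535905-64546173 on the plus strand, and its 1917 coding bases sit in a single exon. HSPA1A (chr6:31815464-31817946) and HSPA1B (chr6:31827735-31830255) also have 1 coding exon each. Over their 1923 coding bases they are 99.8% identical, and 73.6% of the 31-base stretches of HSPA1A and 74.4% of those of HSPA1B recur in the transcripts of another gene. Reads from this pair can therefore be split between them by the counting. The coding sequence of HSPA2 is 79.6% identical to that of HSPA1A and 72.9% to that of HSPA8, but only 3.14% of its 31-base stretches recur elsewhere. For HSPA8 (chr11:123057489-123063230, minus strand) the share was 21.4%, with a processed pseudogene, HSPA8P1, as the gene sharing most.

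HSPA2 was the 1 member whose level was called different between the groups. Its counts were 2318, 1967 and 2203 in control and 2914, 2734 and 2357 in IL17D-overexpressing cells. On the CPM scale these were 143, 136 and 137 against 177, 166 and 165, so every IL17D-overexpressing library lay above every control library. The mean level was 138.5 ± 3.59 CPM (SD, n = 3) in control and rose to 169.5 ± 6.61 CPM (SD, n = 3) with IL17D, a difference of 31 CPM. The difference was 0.29 on the log2 scale (SE 0.042), which is a 1.22-fold level with a 95% interval of 1.15 to 1.30. HSPA2 is best known from the testis, where spermatocytes need it to complete meiosis, and it is also made in many tumour lines. In bulk RNA, more cells with the transcript and more transcript per cell cannot be told apart.

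An antisense gene, AL049869.3, overlaps HSPA2 on the other strand, with 10, 5 and 12 counts in control and 14, 13 and 14 counts in IL17D-overexpressing libraries. Whether counting used the strand is not given in the sources used here. These counts are few beside those of HSPA2, and the antisense gene was not called.

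Of the 11 member rows, all of which passed the filter on low counts, 1 was called higher and 0 were called lower by edgeR at an adjusted p under 0.05. Over the 15754 genes tested, 0.673% were called higher and 0.908% lower, or 1.58% in either direction. At an unadjusted p under 0.05 the members gave 2 rows, HSPA2 and HSPA8, both higher, beside 11.6% of all genes tested (5.59% higher and 5.99% lower). DESeq2 and limma voom called the same number of members as edgeR. The log2 fold change was over 0 in 10 of the 11 rows, with a median of 0.03, beside a median of -0.00044 and 49.9% over 0 among all genes tested. For the 10 rows other than HSPA2 it ran from -0.05 to 0.12, and their 95% intervals lay between -0.14 and 0.29.

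**Figure D1:**
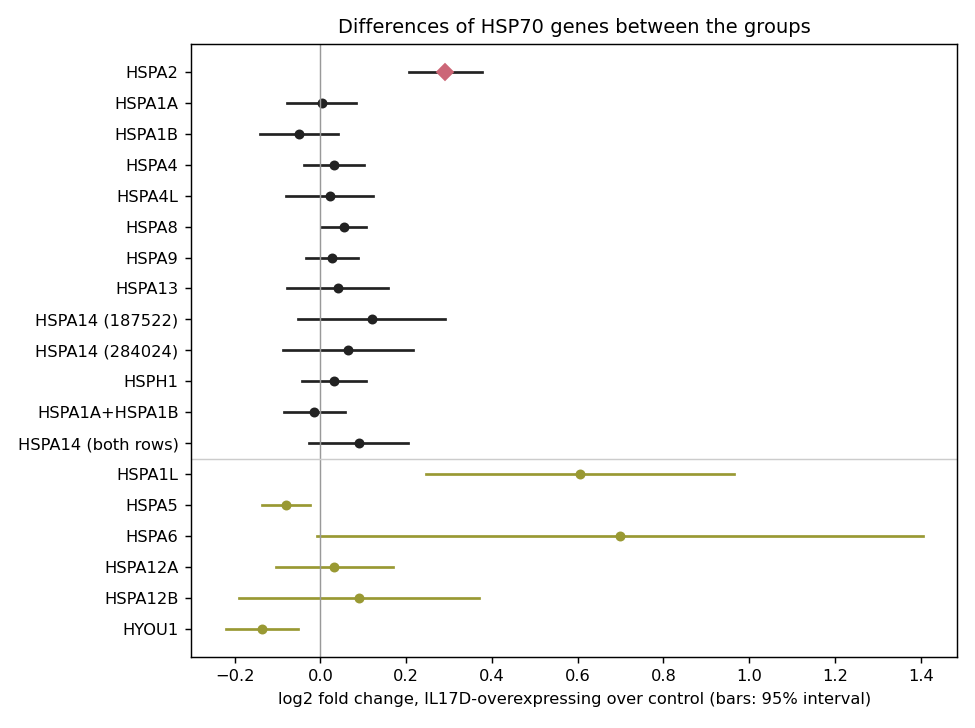
The horizontal axis is the log2 fold change of IL17D-overexpressing over control cells, with bars for the 95% interval (3 libraries a group), for the member rows and the 2 summed rows (black, above the grey line) and 6 other tested genes of the superfamily (olive, below it). The diamond marks HSPA2, the 1 called gene, at 0.29, while HSPA1L and HSPA6 lie further right with wide intervals and were not called.

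HSPA8, the constitutive cytosolic HSP70 also known as HSC70, had 26541, 23772 and 27262 counts in control and 28107, 28533 and 24526 counts in IL17D-overexpressing cells. In CPM these were 1633, 1643 and 1695 against 1709, 1735 and 1719, so the groups did not overlap but lay close. The mean was 1657 ± 33.2 CPM in control and 1721 ± 13.5 CPM in IL17D-overexpressing cells (SD, n = 3 each). Its log2 fold change was 0.05 (SE 0.026) with a 95% interval of 0.0017 to 0.11, and HSPA8 was not called. The difference in its means, 63.6 CPM, was larger than that of HSPA2 on the CPM scale because of its much larger count, while the fold was 1.04.

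HSPA1A and HSPA1B encode the stress-inducible HSP70 and sit side by side in the major histocompatibility complex. HSPA1A measured 194, 198 and 205 CPM in control and 204, 190.3 and 205 CPM in IL17D-overexpressing libraries, fully intermixed. HSPA1B measured 104, 103 and 106 CPM in control and 101, 101 and 102 CPM in IL17D-overexpressing libraries, where the groups did not overlap and the IL17D-overexpressing libraries were lower. Neither was called, with log2 fold changes of 0.0028 (SE 0.039) and -0.05 (SE 0.045). With 1 library left out, the value of HSPA1A ran from -0.01 to 0.04 and that of the sum of both genes from -0.03 to 0.01, each with a change of sign. Summed, the pair had 304 ± 6.63 CPM in control and 301 ± 8.28 CPM in IL17D-overexpressing cells (SD, n = 3 each). The sum differed by -0.01 on the log2 scale (SE 0.035), with a 95% interval of -0.09 to 0.06. That of HSPA2 was 0.21 to 0.38. The family was picked with HSPA2 known as a called gene, so these intervals are no independent evidence of a difference between them. HSPA1A took 65.1% to 67.0% of the counts of the pair in the 6 libraries, a split that rests on how reads common to both genes were assigned.

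In the count of groups that do not overlap, 2 member rows were higher in IL17D-overexpressing libraries (HSPA2 and HSPA8) and 1 was lower (HSPA1B). Among all genes tested, 7.48% did not overlap and were higher, and 8.31% did not overlap and were lower.

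Heat shock factors bind arrays of the pentamer NGAAN in alternating orientation. The element before HSPA1A and HSPA1B is shown because it is the sequence class through which stress induces this pair (30 bases, plus strand, RefSeq promoters on GRCh38.p14, match in capitals).
HSPA1A: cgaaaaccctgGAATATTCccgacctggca
HSPA1B: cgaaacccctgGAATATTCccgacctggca

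The HSPA1A stretch is chr6:31815426-31815455, with the match starting 106 bases before the RefSeq start, and the HSPA1B stretch is chr6:31827622-31827651, with the match starting 105 bases before the RefSeq start. The RefSeq starts lie inside the GENCODE gene positions given above, so these distances do not run from those positions. Both stretches are outside the GENCODE exons of their gene. The search was for GAANNTTC or TTCNNGAA on both strands in the 250 bases before a start, and 11.6% of 35116 such windows held a match. Promoters were found for 9 of the 10 member names. HSPA8 held 4 matches, and 2 matches of the longer 3-unit element that 0.441% of windows hold. HSPA4L held 1 match in 1 of its 3 windows. HSPA1A and HSPA1B held 1 match each and 0 of the 3-unit element. The HSPA1A stretch also lies in the window of HSPA1L on the minus strand, with the match starting 161 bases before the HSPA1L start. All matches of HSPA8 and HSPA4L lie in GENCODE exons of the same gene and are not printed. The windows of HSPA2, HSPA4, HSPA9, HSPA13 and HSPH1 held none. The HSPA2 window held 1 CCAAT and 1 TATAA, letters that occur in 32% and 18.9% of all windows. A match is letters only and does not show binding.

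**Figure D2:**
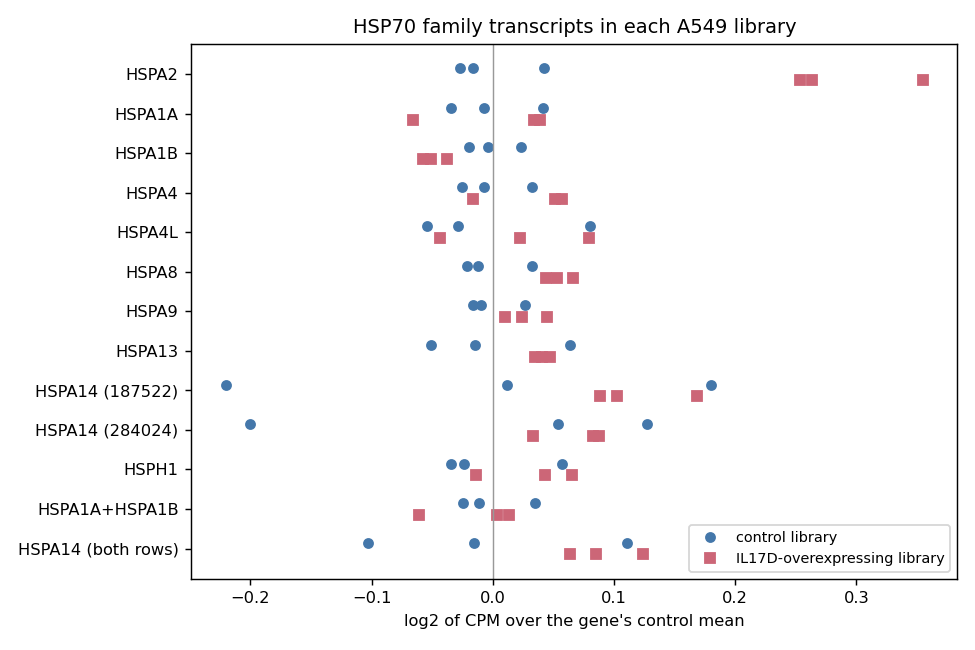
Each point is 1 library, with the log2 ratio of its CPM to the control mean of the same gene on the horizontal axis, control libraries as blue circles and IL17D-overexpressing libraries as red squares. The groups do not overlap in 3 rows, HSPA2 (higher), HSPA8 (higher) and HSPA1B (lower), with the widest gap in HSPA2, and both HSPA14 rows have 1 control library far to the left of the others.

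The exchange factors of the HSP110 branch showed no called difference. HSPA4 (APG-2) averaged 324 ± 6.70 CPM in control and 331 ± 9.39 CPM in IL17D-overexpressing cells, HSPH1 (HSP105) 268 ± 9.34 and 274 ± 7.68 CPM, and HSPA4L (APG-1) 93.9 ± 4.71 and 95.2 ± 4.05 CPM (SD, n = 3 each). All 3 genes had libraries of both groups intermixed. Their log2 fold changes were 0.03, 0.03 and 0.02, with SEs of 0.034, 0.037 and 0.049. Leaving out 1 library moved them between 0.02 and 0.06 for HSPA4, between 0.01 and 0.06 for HSPH1 and between -0.01 and 0.06 for HSPA4L, whose sign was thus not stable.

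HSPA9, or mortalin, imports and folds proteins in the mitochondrial matrix. It averaged 624 ± 10.0 CPM in control and 635 ± 7.63 CPM in IL17D-overexpressing cells (SD, n = 3 each), with a log2 fold change of 0.03 (SE 0.030) and overlapping libraries. HSPA13, a microsome-associated relative, averaged 53.6 ± 2.18 and 55.1 ± 0.237 CPM (SD, n = 3 each), with a log2 fold change of 0.04 (SE 0.058). Its IL17D-overexpressing libraries all lay within the span of the control libraries. With 1 library left out, these values ran from 0.02 to 0.04 for HSPA9 and from 0.02 to 0.07 for HSPA13.

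HSPA14, a ribosome-associated HSP70, has 2 entries on chromosome 10 that overlap in position. The principal transcript of ENSG00000187522 has 1527 coding bases, while that of ENSG00000284024 has only 429. Of the 31-base stretches of ENSG00000284024, 8.71% recur in the other entry. ENSG00000284024 is thus a member row by its gene name, and whether its shorter product acts as an HSP70 was not tested. ENSG00000187522 measured 24.3, 28.6 and 32.1 CPM in control and 30.4, 30.1 and 31.8 CPM in IL17D-overexpressing libraries. ENSG00000284024 measured 39.4, 31.4 and 37.4 CPM in control and 36.9, 38.2 and 38.3 CPM in IL17D-overexpressing libraries. The control libraries were the more spread in both entries. Their log2 fold changes were 0.12 (SE 0.085) and 0.06 (SE 0.075), the least precise of the members, and leaving out 1 library moved them between 0.02 and 0.22 and between -0.02 and 0.13. In control library 1, ENSG00000284024 took 61.8% of the counts of both entries (95% Wilson interval 58.8% to 64.7%), and in the other 5 libraries it took 52.4% to 55.9%. These intervals cover counting error only. Summed, the entries had 64.4 ± 4.83 CPM in control and 68.6 ± 1.45 CPM in IL17D-overexpressing cells (SD, n = 3 each), a log2 fold change of 0.09 (SE 0.057) that was not called.

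Per kilobase of gene model, the levels in control spanned from HSPA8 at 342 CPM per kb to the ENSG00000284024 entry of HSPA14 at 7.32 CPM per kb. The order between them was HSPA1A (80.2), HSPA9 (75.6), HSPA4 (62.9), HSPA1B (41.5), HSPH1 (31.9), HSPA2 (24.0), HSPA13 (12.8), the ENSG00000187522 entry of HSPA14 (10.7) and HSPA4L (8.08), all in CPM per kb. The control ranges of neighbours in this order overlapped only between HSPA4L and the last HSPA14 entry. HSPA2 was seventh in both groups, at 24.0 ± 0.622 CPM per kb in control and 29.3 ± 1.14 CPM per kb in IL17D-overexpressing cells (SD, n = 3 each).

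The gene model adds up all annotated exon bases, and that of HSPA2 is 5777 bases against 2767 bases in its principal transcript. Per kilobase of that transcript, HSPA2 had 50.1 ± 1.30 CPM per kb in control, where its range overlapped that of HSPH1 (51.5 ± 1.80), and 61.3 ± 2.39 CPM per kb in IL17D-overexpressing cells, where it lay above HSPH1 (52.7 ± 1.48, SD, n = 3 each). On this scale HSPA9 moved to the place behind HSPA8, at 221 against 758 CPM per kb in control. The place of HSPA2 among the members thus depends on the length used, while its difference between groups does not.

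**Figure D3:**
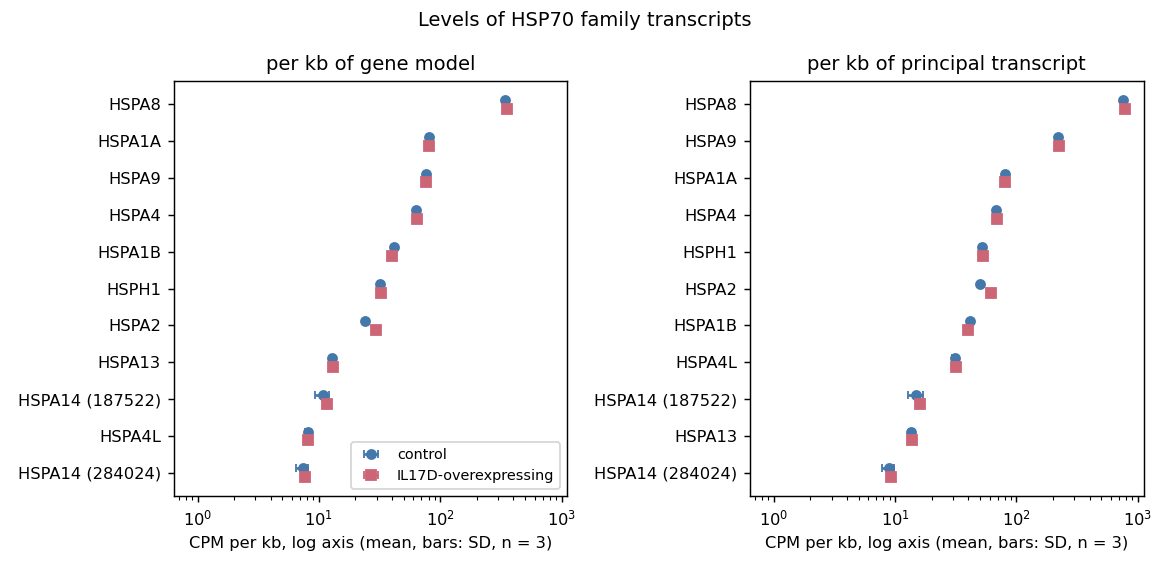
Each panel gives the mean CPM per kb (log axis, bars are SD, 3 libraries a group) of each member row in control (blue circles) and IL17D-overexpressing cells (red squares), ordered by the control level. HSPA8 stands highest in both panels, and the symbols of HSPA2 are the furthest apart of the 11 rows.

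Among the 4 members that carry the EEVD codons (HSPA1A, HSPA1B, HSPA2 and HSPA8), HSPA2 made up 5.13%, 4.87% and 4.76% of the length-scaled level in control and 6.07%, 5.72% and 5.65% in IL17D-overexpressing libraries. HSPA1L, which is no member and has few counts, also ends in these codons and was left out of the sum. The groups did not overlap, with means of 4.92% ± 0.190 and 5.81% ± 0.226 (SD, n = 3 each). This share restates the HSPA2 difference given above, which was known when the family was picked, and is no separate result. HSPA8 held most of this sum in all libraries. The plain CPM of all 11 rows together came to 3527 ± 74.7 in control and 3651 ± 19.4 in IL17D-overexpressing cells, a difference of 123 CPM, of which 92.3 CPM was left without HSPA2.

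The rest of the HSP70 superfamily was read from 7 genes, of which 6 were tested and 0 were called in either direction by edgeR. At an unadjusted p under 0.05 there were 3 of the 6, beside 11.6% of all genes tested. The groups did not overlap for 2 higher and 2 lower genes, beside 7.48% and 8.31% of all genes tested. HSPA5 (BiP), the chaperone of the endoplasmic reticulum, had the most counts, at 949.97 ± 8.24 CPM in control and 899 ± 5.80 CPM in IL17D-overexpressing cells (SD, n = 3 each). Its log2 fold change was -0.08 (SE 0.028, edgeR adjusted p = 0.18). Of genes named after their values were seen, HYOU1, the exchange factor of BiP, had a log2 fold change of -0.14 (SE 0.041, edgeR adjusted p = 0.10), and its libraries, like those of HSPA5, did not overlap and were lower.

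HSPA1L, a testis HSP70 beside HSPA1A that was also named after its values were seen, had 84, 49 and 65 counts in control and 101, 100 and 101 counts in IL17D-overexpressing libraries. Its log2 fold change of 0.60 (SE 0.18) did not pass (edgeR adjusted p = 0.081), but without control library 1 it was 0.79 and passed (edgeR adjusted p = 0.033). HSPA6, a strictly stress-inducible HSP70 named in the same way, had 13, 21 and 20 counts against 25, 25 and 38 counts, with a log2 fold change of 0.70 (SE 0.35, edgeR adjusted p = 0.44). Both were low beside HSPA2, and their groups did not overlap. HSPA7, the 1 listed gene that was not tested, had 0 to 4 counts in a library.

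Of 47 listed genes for J-domain proteins, 41 were tested, 0 were called higher and 1 was called lower, beside 0.673% higher and 0.908% lower over all genes tested. Their median log2 fold change was -0.0049, and 4 were at an unadjusted p under 0.05, beside 11.6% of all genes tested. The called gene was DNAJC22, a little studied membrane-spanning member, at 60.8, 60.1 and 63.0 CPM in control and 54.5, 52.9 and 51.6 CPM in IL17D-overexpressing libraries. It fell by 0.21 on the log2 scale (SE 0.057, edgeR adjusted p = 0.048). The call lies at the threshold and was lost when any single library was left out (edgeR adjusted p 0.091 to 0.24), and also with DESeq2 and limma voom. DNAJA1, the J-domain partner of HSPA8 with the most counts of the list, had a log2 fold change of 0.05 (SE 0.033, edgeR adjusted p = 0.61).

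None of the other lists held a called gene in the edgeR test. Over all genes tested, 11.6% were at an unadjusted p under 0.05. Nucleotide exchange factors and cofactors had 13 of 15 genes tested, 1 of them at an unadjusted p under 0.05, and a median log2 fold change of 0.01. The 1 gene was SIL1 (log2 fold change -0.16, SE 0.075, edgeR adjusted p = 0.40). STIP1, which bridges HSP70 and HSP90 through the EEVD motif shown above, had the most counts of this list, at 463 ± 7.02 and 470 ± 4.87 CPM (SD, n = 3 each). HSP90 and its co-chaperones had 18 of 18 tested, with HSP90AA1, the inducible HSP90, at 2693 ± 20.4 and 2727 ± 20.8 CPM (SD, n = 3 each). HSP90B1 was the 1 gene of this list at an unadjusted p under 0.05 (log2 fold change -0.08, SE 0.028, edgeR adjusted p = 0.24). Small heat shock proteins had 3 of 11 tested, and HSPB1 (HSP27) had a log2 fold change of -0.04 (SE 0.034). HSPB8, with 72 to 121 counts in a library, was the 1 gene at an unadjusted p under 0.05. Its log2 fold change of -0.41 (SE 0.15, edgeR adjusted p = 0.23) was the lowest of all 8 lists.

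Chaperonins and prefoldin had 17 of 17 genes tested, of which 16 had a log2 fold change over 0, beside 49.9% of all genes tested. The median of the list was only 0.02, and 1 gene was at an unadjusted p under 0.05. That gene was HSPD1 (HSP60), the mitochondrial chaperonin, with a log2 fold change of 0.07 (SE 0.028, edgeR adjusted p = 0.32). Heat shock factors and their regulators had 5 of 6 tested and 0 at an unadjusted p under 0.05, with HSBP1, a heat shock factor binding protein, at 116 ± 3.07 and 117 ± 2.87 CPM (SD, n = 3 each). The heat shock response list, 21 genes induced through HSF1 and partly shared with the lists above, had 20 tested, 3 at an unadjusted p under 0.05 and a median log2 fold change of 0.04.

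Over all 8 lists, 126 genes were listed and 108 tested, of which 0 were called higher, 1 was called lower and 13 were at an unadjusted p under 0.05. Over all genes tested, 0.908% were called lower and 11.6% were at an unadjusted p under 0.05. Both pooled counts of the network were near that background. Some single lists, with few genes each, stood above it at that unadjusted p. These were the rest of the HSP70 superfamily (3 of only 6 tested genes), small heat shock proteins (1 of 3) and the heat shock response list (3 of 20). The median log2 fold change of the 108 genes was 0.01. DESeq2 and limma voom called 0 of them in either direction.

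**Figure D4:**
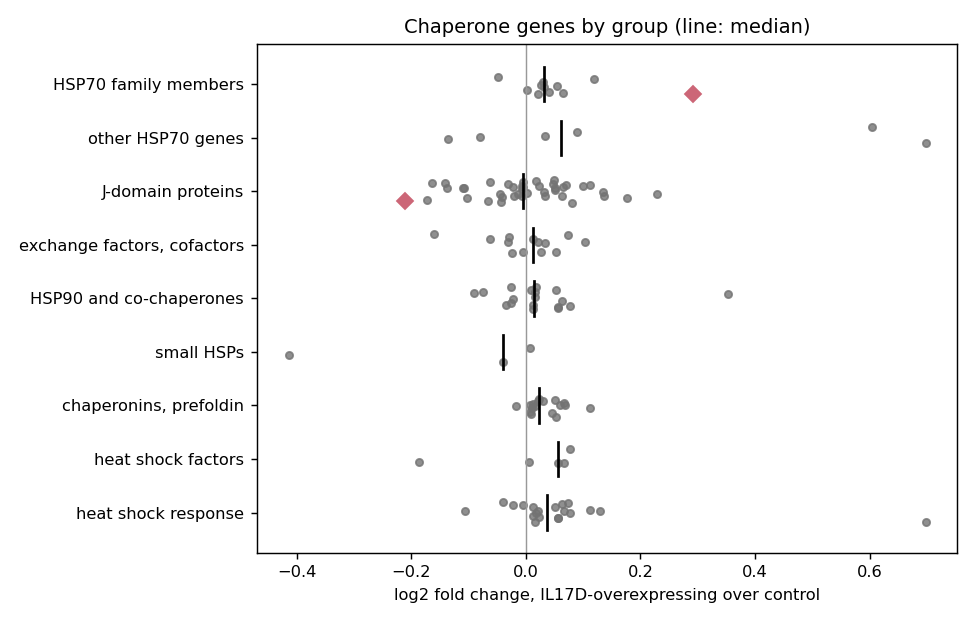
Points are tested genes by chaperone group, with the log2 fold change of IL17D-overexpressing over control cells on the horizontal axis and a black line at each group's median (3 libraries a group). The red diamonds mark the called genes, HSPA2 at 0.29 and DNAJC22 at -0.21.

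The genes most like HSPA2 were sought by the root mean square difference of log2 CPM, each gene centred on its own mean over the 6 libraries, among 9740 genes with a mean of at least 10 CPM. The 5 nearest were FOSL1 (0.021), MIRLET7BHG (0.026), ADM (0.031), DSCC1 (0.034) and MYC (0.038), with the difference in log2 units in parentheses. FOSL1, an AP-1 subunit, went from 44.9 ± 1.83 to 54.1 ± 1.95 CPM, and ADM, which encodes adrenomedullin, from 77.2 ± 1.02 to 91.9 ± 1.43 CPM (SD, n = 3 each). The host transcript of let-7b, MIRLET7BHG, went from 10.97 ± 0.410 to 13.5 ± 0.889 CPM, and DSCC1, a cohesion factor, from 22.8 ± 0.677 to 27.3 ± 1.33 CPM (SD, n = 3 each), and neither was called. MYC, a transcription factor of growth genes, went from 190.04 ± 2.75 to 225 ± 2.58 CPM (SD, n = 3 each). With 3 libraries a group, this likeness is mostly a shared difference between the groups, and no test was made of it.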

How the data were processed

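RNA-seq gene counts of 3 IL17D-overexpressing and 3 control A549 libraries were analysed. The authors deposited 1 table of whole-number read counts per gene without normalization, and 0 of its per-sample columns were left out. The submitters' processing notes name Bowtie2 and hg38; the counter, the use of strand and the roles of these tools are not given in the sources used here. All 58735 genes of the table had the positions of GENCODE 29. Total counts per library were 14319398 to 16521021.

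Counts were tested in R 4.3.3 with edgeR 4.0.16 (filterByExpr, TMM, glmQLFit and glmQLFTest, two-sided, no covariates), with Benjamini-Hochberg adjustment over 15754 tested genes and a call at an adjusted p under 0.05. CPM were TMM-scaled. DESeq2 1.42.0 and limma 3.58.1 voom were alternatives, as were other size factors, other filters on low counts, a replicate block and leaving out each library. Sequences and identities were computed in Python 3.11.15 with biopython 1.88, and the fitting was tested on simulated data. Libraries of 1 group differed beyond counting noise (chi-square per degree of freedom 2.16 to 3.18), so none was counted as a duplicate. The labels do not say that replicates were separate cultures, so p-values measure the spread between these samples, which may be technical.

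The members and gene lists were chosen with earlier results of these data known, and no test on the members is independent evidence. Genes named were the 10 members and the HSPA1A and HSPA1B sum, IL17D, each called gene and the gene with the most counts of each list, and the 5 genes most like HSPA2. HSPA1L, HSPA6, HSPA7, HYOU1, HSP90B1, HSPB8, SIL1, KRT7, KRT18 and the markers given at or near 0 counts were named outside this rule. These genes were named after their values were seen. AL049869.3, which overlaps HSPA2, and HSPA8P1, which shares sequence with HSPA8, were also outside the rule. Transcript lengths and the summed HSPA14 entries were added after seeing the data.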

Additional observations from a re-analysis of the deposited data

How the results depend on the processing

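Under 13 alternatives, 1 of them another rule for calls on the same fit, 1 member was called higher and 0 lower in each. Under the 12 that were refitted, the log2 fold change of HSPA2 stayed between 0.26 and 0.31 (adjusted p 1.5e-08 to 0.0015). The number of chaperone network genes called lower, 1 in the reported fit, was 0 under the DESeq2 Wald test, 0 under limma voom and 0 to 0 with any 1 library left out, where fewer samples entered the fit. For DNAJC22 the adjusted p was 0.090 with DESeq2 and 0.054 with limma voom, and ran from 0.045 to 0.24 over all alternatives. The number called higher was 0 to 1 with 1 library left out, the 1 being HSPA1L without control library 1; the cause was not tested. The HSPA2 share of the cytosolic set was 6.60% in control and 7.74% in IL17D-overexpressing cells with no division by length, and 5.39% and 6.32% with the transcript length, by construction of the scale. The median log2 fold change of the members was 0.02 to 0.06.

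Deviations from the group means correlated at 0.069, -0.11 and -0.067 between same-numbered libraries, and at -0.14 to 0.20 between libraries of different numbers. Deviations within a group sum to 0, so with 3 libraries a group these values cannot exclude a pairing. With the replicate number as a block, HSPA2 was at 0.29 (adjusted p 9.0e-07), DNAJC22 at -0.21 (adjusted p 0.046), the members' median at 0.03, and the counts of calls were 1 higher and 0 lower among members and 0 higher and 1 lower in the network. Precision differed among members, with SEs of 0.026 (HSPA8) to 0.085 (HSPA14, ENSG00000187522), and for 9 of the 11 rows the 95% interval included 0. Gene-level counts also leave reads shared by HSPA1A and HSPA1B, and by both HSPA14 entries, unresolved.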
